A study of Drosophila melanogaster with 4 samples.

Results

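Cuticle protein genes of Drosophila melanogaster were examined for RNA polymerase II carrying phosphate on serine 5 of its C-terminal repeats, the Ser5P form. The set held 47 genes of 8198 protein-coding genes placed on the chromosome arms 2L, 3R and X. They were chosen by name as the protein-coding genes on these arms whose symbols begin with Cpr and a digit, Twdl, Ccp84, Lcp or Edg. There were 14 genes named Cpr, 24 Tweedle genes (Twdl), 7 Ccp84 genes, 2 Edg genes and 0 Lcp genes. By arm, 6 lay on 2L, 33 on 3R and 8 on X. Genome-wide, 120 symbols matched, and those on other chromosomes were not analysed here.

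The study was a ChIP-seq experiment on Kc167 cells, an established female cell line of embryonic origin with the genotype label se/e. A rabbit polyclonal antibody against the Ser5-phosphorylated repeat was used, and the series held 2 ChIP libraries and 2 input libraries, with no treatment in the labels. The values come from the authors' lists of enriched regions, with 1 list per ChIP replicate and another, the combined list, for the replicates together. No region list of an input library was analysed here. The lists give no read counts, so depth is unknown.

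Insect cuticle is a layered coat of chitin fibres and structural proteins that the epidermis secretes to the outside. Most Cpr and Ccp84 proteins carry the Rebers and Riddiford motif, which binds chitin. Tweedle proteins form a separate insect family, named after the short, stout body of flies with a mutant TwdlD. Edg84A and Edg91 were found as ecdysone-dependent genes, and pulses of that hormone time the making of each new cuticle. Kc167 cells are commonly described as resembling blood cells, which do not make cuticle. Ser5 phosphorylation marks polymerase at the start of transcription and over the first part of genes, so that its regions are found at active or paused promoters.

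None of the 47 cuticle protein genes held a single base of an enriched region in any of the 3 lists. The gene table gives no strand, so either end of a gene could be its start site. For the cuticle protein genes this made no difference, because 0 of 47 had an end inside a region. Over all protein-coding genes of the 3 arms, 55% had at least 1 end in a region of all 3 lists and 25.8% had both ends there, so the share of start sites lies between these bounds. A further 41.4% of all genes had no base in a region of any list, against 47 of 47 cuticle protein genes.

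On each arm the count of 0 stood against 50.6% of all genes of 2L with at least 1 end in a region of all 3 lists, 56.2% of those of 3R and 58.4% of those of X. The 3 lists gave the same count. At least 1 end lay in a region for 0 of 47 cuticle protein genes in replicate 1, in replicate 2 and in the combined list. Over all genes that share was 55.6% ± 0.0259 (SD, n = 2) in the replicates and 57.1% in the combined list. The ChIP labels number the replicates without saying whether they came from separate cultures, so this spread may be technical. Cuticle protein genes are short, with a median length of 1.09 kb against 2.17 kb for all genes. Among 5479 genes between 0.638 and 4.65 kb, the range of the cuticle protein genes, 55% again had at least 1 end in a region of all 3 lists, 29.9% had both ends there and 42.9% had no region base. In the blocks of the arms where the conversion of gene positions held best, 55.7% of 8007 genes had at least 1 end in a region.

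Other gene families were measured in the same way. Of 98 chemoreceptor genes (odorant, gustatory and ionotropic receptors, which serve sensory neurons), 10.2% had at least 1 end in a region of all 3 lists, 3.06% had both ends there and 88.8% had no base in any region. Of 55 genes for cytoplasmic ribosomal proteins, which every cell uses, 94.5% had at least 1 end in a region, 89.1% had both ends there and 5.45% had no region base. The cuticle protein genes were thus at the low end of these sets, beside the chemoreceptor genes. No test of the difference between the families was made.

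**Figure D1:**
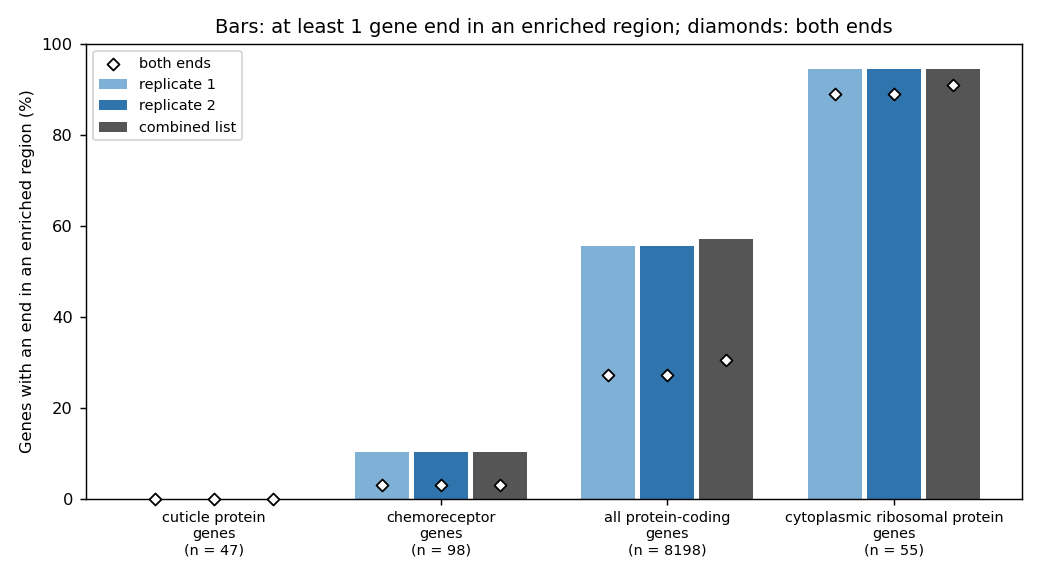
Share of genes with at least 1 end (bars, %) or both ends (diamonds, %) in an enriched region of replicate 1, replicate 2 or the combined list, by gene family with the number of genes. The cuticle protein genes stand at 0 in each list, all protein-coding genes between 55.6% and 57.1% for at least 1 end, and the ribosomal protein genes at 94.5%.

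Markers of blood cells and of other tissues were counted in the same way. Of 14 blood cell markers on the 3 arms, 10 had at least 1 end in a region of all 3 lists, against 55% of all genes. With only 14 genes, this count is not read as a difference from that share. Among the 10 was srp, the GATA factor of the blood lineage, with 72.6% of its bases in regions of all 3 lists. NimC1, He and Sr-CI, which mark larval blood cells, and also lz had no base in any region. Of 7 epidermis markers, 1 had an end in a region. This was crb, which sets epithelial polarity, with 5.26% of its bases in regions of all 3 lists. Of the others, f had 17.8% of its bases in such regions, and kkv, Ddc and Cad99C lay 0.035, 0.393 and 0.554 kb from a region. Gene positions were checked only to within 1 kb, so these short distances are not firm. The remaining knk and ovo lay 6.90 and 10.6 kb away. The genes kkv, knk and Ddc are counted again in the chitin and tanning lists below. The counts were 1 of 4 for nerve markers and 1 of 5 for muscle markers. These were elav, with 8.46% of its bases in regions of all 3 lists, and Tm1, with 19.8%. All these counts are read against the 55% of all genes, and no test was made.

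The 47 genes lay in 21 separate empty stretches, where an empty stretch is a run of bases with no enriched region in any list. Their stretches ranged from 14.1 to 405 kb, with a median over the genes of 79.3 kb. The 3392 genes without any region base had a median stretch of 59.7 kb. For the 87 chemoreceptor genes without a region base it was 115 kb, longer than for the cuticle protein genes. Those chemoreceptor genes lay a median of 12.9 kb from the nearest region, against 20.5 kb for the cuticle protein genes. For all 3392 genes without a region base that distance was 9.51 kb. The cuticle protein genes were not alike in it, with medians of 8.42 kb for Cpr, 47.5 kb for Tweedle, 31.7 kb for Ccp84 and 13.5 kb for Edg genes. Counted once each, the 21 stretches had a median of 48.8 kb, and the 926 stretches of these arms that hold at least 1 whole gene had a median of 29.6 kb. A longer stretch has room for more genes and so is more often among those that hold a given gene. Of the cuticle protein genes, 22 (46.8%) lay in stretches over 100 kb, and these 22 shared only 3 stretches, against 35.8% of all untouched genes. The median of the replicates was 79.3 kb ± 0.0198 (SD, n = 2).

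**Figure D2:**
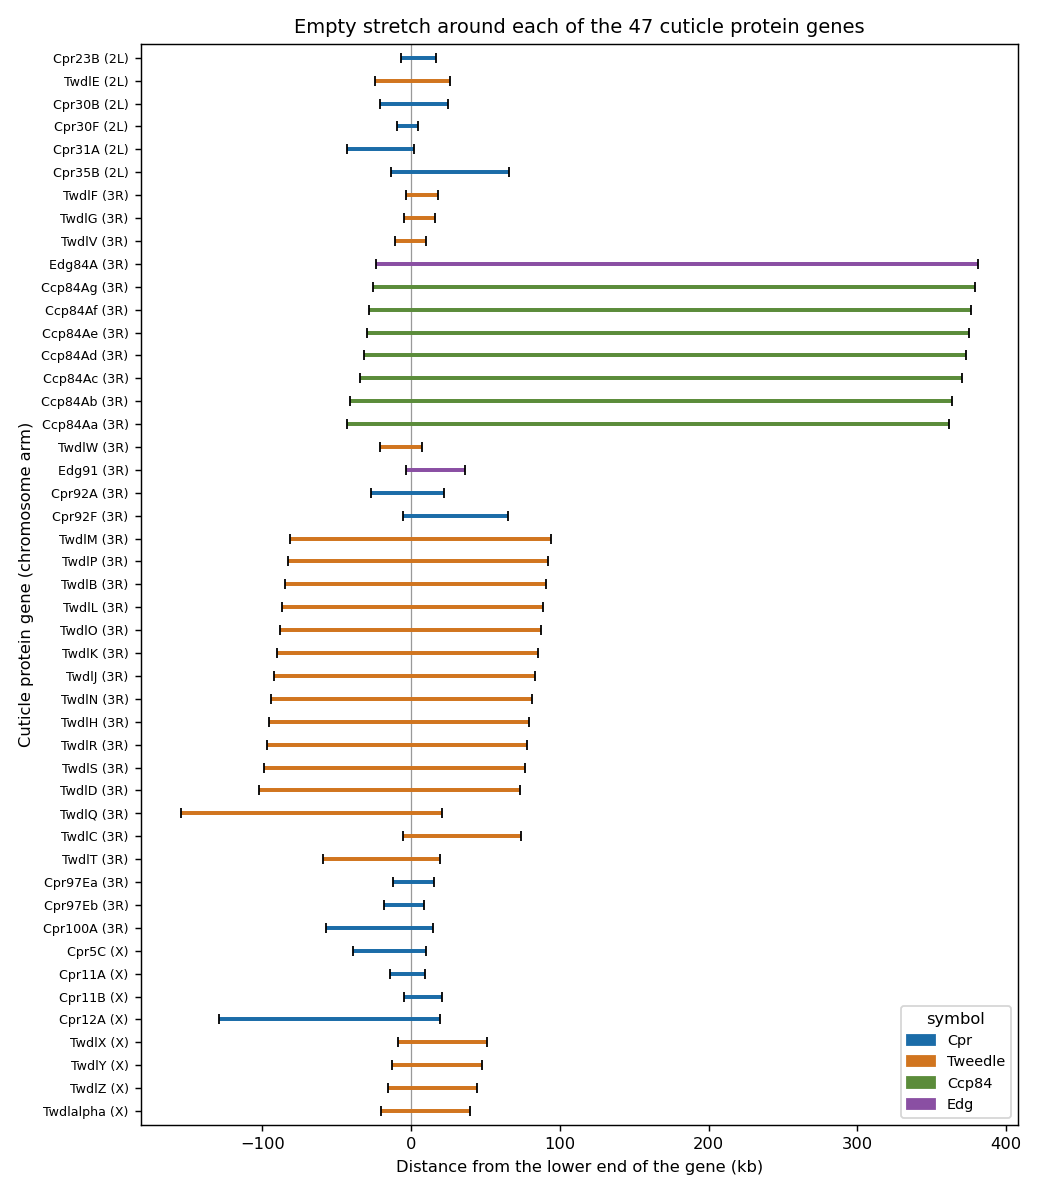
Empty stretch around each of the 47 cuticle protein genes, ordered by arm and position. Each bar runs from the region before to the region after the gene, as distance in kb from the gene end with the smaller coordinate, and colours give the symbol group. The Edg84A and Ccp84 genes share the stretch of 405 kb, and Cpr31A is the gene whose bar ends at the gene itself.

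The chitin-binding Cpr genes were scattered, with 14 genes in 13 stretches. Their distance to the nearest region of any list ranged from 0.012 to 20.9 kb, with a median of 8.42 kb. The 24 Tweedle genes in 6 stretches lay 3.35 to 86.8 kb from a region and fell into 2 parts. The 12 genes of a single array on 3R lay 71.9 to 86.8 kb away, and the other 12 lay 3.35 to 23.0 kb away, with a median of 10.9 kb. The Ccp84 genes lay 25.7 to 43.0 kb from a region. Of all 47 genes, 15 had a region within 10 kb and 35 within 50 kb. Among 3345 other genes without a region base, 51.6% had a region within 10 kb, against 31.9% of the cuticle protein genes. These genes share stretches and are not independent of each other.

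**Figure D3:**
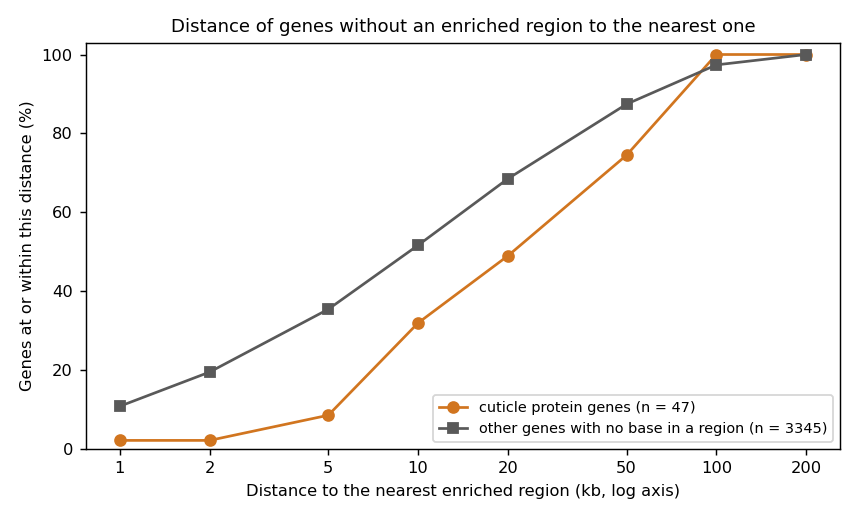
Share of genes (%) at or within a given distance of the nearest enriched region of any list (kb, log axis), for the 47 cuticle protein genes and for 3345 other genes without a region base. At 5 kb the curves stand at 8.51% and 35.4%, at 20 kb at 48.9% and 68.5%.

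The members came in 5 clusters of genes at most 20 kb apart, which held 29 genes, and as 18 single genes. The cluster at 84A on 3R holds Edg84A and 7 Ccp84 genes, from Ccp84Ag to Ccp84Aa, which encode larval and pupal cuticle proteins. Its 8 genes spanned 20.5 kb. They lay in an empty stretch of 405 kb, at 2486773 to 2891691 of 3R (FlyBase release 5). This was the longest of 2811 empty stretches on the 3 arms, and it was also the longest in each list taken alone. Ccp84Aa lay 43.1 kb from the nearest region of replicate 1 and 43.0 kb from that of replicate 2, with 43.0 kb in the combined list. For Edg84A it was 23.4 kb in each of the 3 lists.

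The same stretch holds the Antennapedia complex, whose Hox genes give segments their identity. The cuticle genes stand between lab, 5.85 kb away on one side, and pb, 2.90 kb away on the other. In all, 17 other genes lay wholly inside the stretch, among them Dfd, Scr and Antp. The nearest gene with an end in a region of all 3 lists was agt, 24.3 kb before the cluster and wholly covered. On the other side the nearest was CG1105, 359 kb away, with 39.0% of its bases in regions of all 3 lists. The region that closes the stretch at 2481364 to 2486772 scored 2.06 in the combined list and 2.08 and 2.12 in the replicates. This score is the authors' own, and the sources used here do not name its scale.

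The largest cluster by number was the Tweedle array on 3R. From TwdlM to TwdlD, 12 genes were packed into 21.9 kb, with no other protein-coding gene overlapping them. With TwdlQ, which lies apart, they occupied an empty stretch of 175 kb at 22363531 to 22538691 of 3R, the stretch of rank 46 among the 2811. The length was 175 kb in each of the 3 lists. TwdlL lay the farthest of all 47 genes from a region, at 86.8 kb in replicate 1 and the combined list and 86.9 kb in replicate 2. TwdlD, the founding gene of the family, was 71.9 kb from the nearest region in each list. The stretch held 2 further genes, beat-VII and Tb. Tb encodes another Tweedle protein, whose mutant gives the Tubby body shape, and it was not chosen because of its symbol.

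The regions that bounded this stretch scored above the median of 1.37 in the combined list. Before it lay a region at 22359632 to 22363530 with a score of 3.22 in that list and 3.19 and 3.29 in the replicates. It holds 1 end each of plum and of scrib, a cell polarity gene, and scrib extends from there into the empty stretch with 2.04% of its bases in regions of all 3 lists. After it lay a region with scores of 1.87, 1.96 and 1.80 in the same order, and it holds an end of CG6425.

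**Figure D4:**
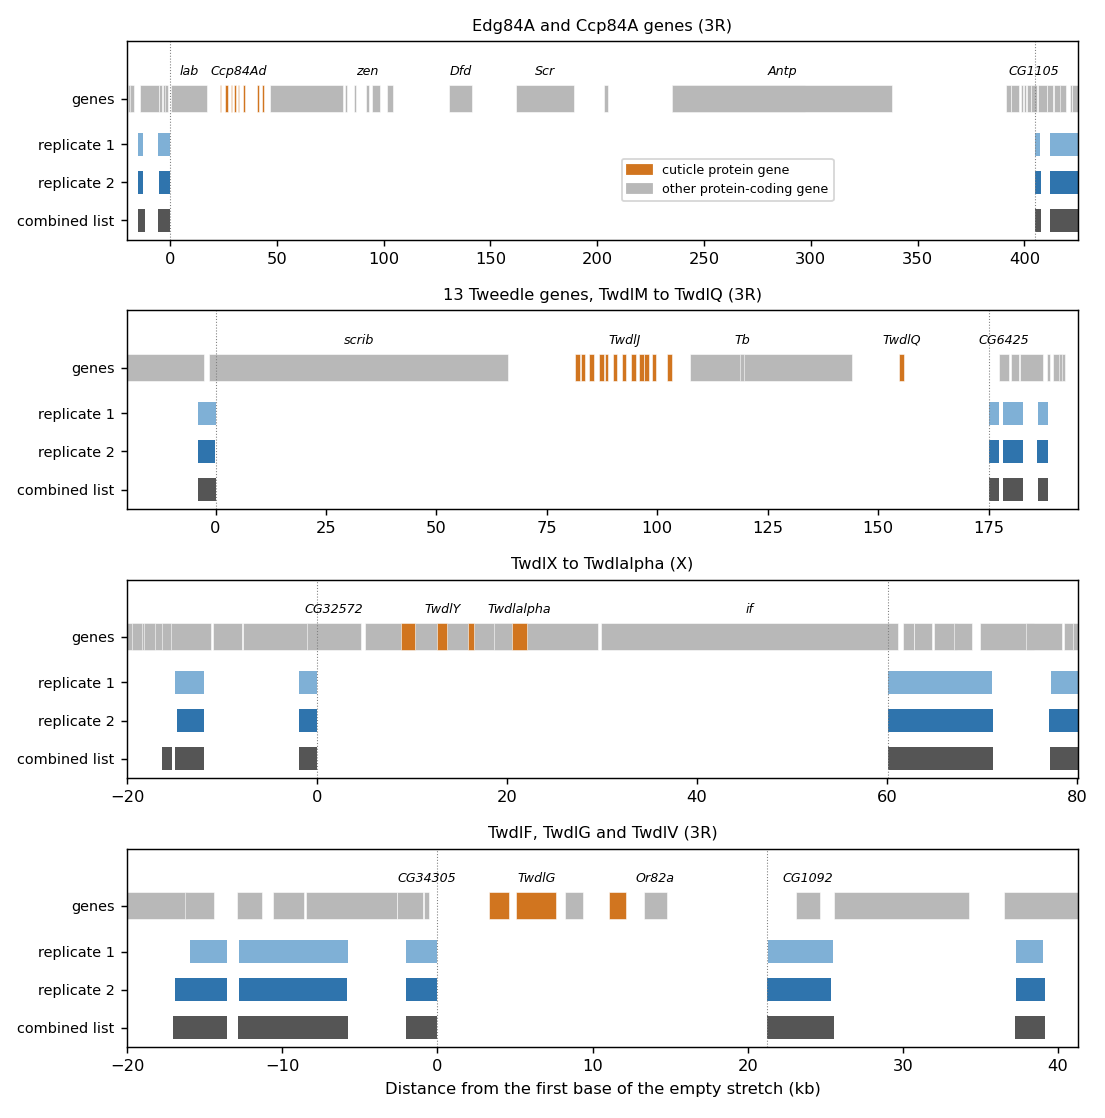
Maps of the 4 empty stretches that hold at least 3 cuticle protein genes, with 20 kb on each side. The horizontal axis is the distance in kb from the first base of the stretch, orange boxes are cuticle protein genes, grey boxes other protein-coding genes, and the lower rows show the enriched regions of replicate 1, replicate 2 and the combined list. Dotted lines mark the ends of each stretch, and no region of any list lies between them.

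Smaller clusters lay closer to genes with a region. The lower side is the side of smaller coordinates. TwdlF, TwdlG and TwdlV on 3R shared a stretch of 21.3 kb at 69393 to 90657. TwdlF was 3.35 kb from a region of replicate 1, as in the combined list, and 3.38 kb from one of replicate 2. The nearest gene with an end in a region of all 3 lists was CG34305 on the lower side, 3.87 kb from the cluster. CG1092 on the upper side was 10.9 kb away, and the region over it scored 2.83 in the combined list and 2.82 and 2.93 in the replicates. Both genes were wholly covered, while the 3 Tweedle genes between them had no region base.

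On X, TwdlX, TwdlY, TwdlZ and Twdlalpha lay in a stretch of 60.1 kb at 16616335 to 16676403. TwdlX was 8.79 kb from a region of the combined list and 8.83 and 8.81 kb from those of the replicates. The span of goe, which is longer than the cluster, contains all of it, and CG32568 lies within the cluster. Both genes had 0% of their bases in regions of all 3 lists. The neighbouring gene on the upper side, if, which encodes an integrin subunit, began 7.82 kb from the cluster and reached to the region at the far edge of the stretch, with 3.32% of its bases in regions of all 3 lists. On the lower side CG32572 lay 4.14 kb away, with 18.7% of its bases in such regions. Cpr97Ea and Cpr97Eb on 3R formed the fifth cluster, in a stretch of 27.4 kb at 22896855 to 22924303. It was bounded on the lower side by a region that holds an end of spz, the gene for the Toll ligand, and on the upper side by one that holds an end of eater, a phagocytic receptor gene of blood cells. The region at eater scored 0.80 in the combined list and 0.91 and 0.71 in the replicates, and lay 7.45 kb from Cpr97Eb in replicate 1 and the combined list and 7.47 kb in replicate 2.

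Cpr31A on 2L stood nearest to a region. The region at 10055948 to 10061902 began 12 bp beyond the end of Cpr31A in the combined list, 0.023 kb beyond it in replicate 1 and 0.018 kb in replicate 2. This region scored 2.15 in the combined list and 2.16 in each replicate. It covers Pen, an importin alpha gene that lies 0.964 kb from Cpr31A, and Pen was wholly covered in all 3 lists. The gap of 12 bp is smaller than the 250 bp step in which the conversion between genome releases was checked. That check accepted a best shift of up to 1 kb, so positions may be less certain than the step. Whether the end of Cpr31A beside the region is its start site cannot be read from a table with no strand.

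After Cpr31A the genes nearest to a region were TwdlF, Edg91 and Cpr30F. Edg91 lay 3.58 and 3.57 kb from a region at sll in the replicates and 3.56 kb from it in the combined list. That region scored 0.29 in the combined list and 0.31 and 0.33 in the replicates, below the median of 1.37. Cpr30F lay 3.66, 3.72 and 3.61 kb from a region that holds an end of Arglu1, in replicate 1, replicate 2 and the combined list. It also had the shortest stretch, 14.1 kb at 9922717 to 9936771 of 2L.

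The bounds of 4 stretches differed between the lists. Of the 42 stretch sides, 38 had a region in all 3 lists. At Cpr92F on 3R, both replicates held an enriched region 5.17 and 5.18 kb away, with scores of 0.09 and 0.20. The combined list types this place as depleted with a score of -0.07, which left Cpr92F 33.1 kb from an enriched region there. At Cpr30B on 2L, replicate 1 had an enriched region with a score of 0.05, where the combined list again had a depleted one with a score of -0.06, so the stretch was 45.7 kb in replicate 1 and 71.2 kb in replicate 2 and the combined list. The nearest region to Cpr100A was 13.3 kb away in replicate 1, 17.8 kb in replicate 2 and, for the combined list, 13.6 kb. At TwdlE the stretch was 53.9 kb in replicate 1 and 50.7 kb in replicate 2. No cuticle protein gene touched a depleted region in any list. Depleted regions were few, so this count of 0 says little. Replicate 1 had 14 of them on the 3 arms, replicate 2 had 10 and the combined list had 40. How many of all genes touched one was not measured.

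The remaining single genes also lay outside all regions. Cpr12A lay in a stretch of 148 kb, the shortest of the 3 over 100 kb, and was 17.9 kb from a region in each of the 3 lists. Cpr5C and Cpr11A were 9.38 and 6.75 kb from the nearest region of any list. Cpr11B, whose span overlaps the gene hwt, was 5.12 kb from one. Cpr92A was 20.9 kb away, TwdlW 5.81 kb, TwdlC 5.24 kb and TwdlT 17.9 kb. On 2L, Cpr23B lay 7.14 kb from a region, Cpr35B 13.8 kb and TwdlE 23.0 kb. All 11 of these genes had no region base in replicate 1, in replicate 2 or in the combined list.

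Genes near the cuticle protein genes were counted as well. Of 158 other genes within 20 kb of a cuticle protein gene, 33.5% had at least 1 end in a region of all 3 lists, 8.23% had both ends there and 59.5% had no region base. Over all genes the corresponding shares were 55% and 41.4%. Of the 45 genes that stand next to a single gene or a cluster, 12 had an end in a region of all 3 lists and 32 had no region base. So the neighbours lay between the cuticle protein genes and all genes, a description of positions with no test. They were picked for standing beside genes in empty stretches, so a share below that of all genes is partly built in. The share beside other genes without a region base was not measured.

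Other genes of cuticle formation included some with a region and some without. A further list held 18 cuticle, apical matrix and related genes on these arms. Of these, 0 had an end in a region of all 3 lists and 15 had no region base at all, where all genes gave 55% and 41.4%. Gasp, obst-A and Vajk1 were among the 15. The 3 with some bases were tyn, m and f, which are 60.3, 15.2 and 48.0 kb long, and f is also counted among the epidermis markers. Pcp, a pupal cuticle protein gene that lies in an intron of a purine synthesis gene, was 0.19 kb from a region, less than the 250 bp step of the position check.

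In the chitin list, 6 of 12 genes had at least 1 end in a region of all 3 lists, near the 55% of all genes. They included mmy, which makes the UDP-GlcNAc used for chitin and for protein glycosylation, with 53.1% of its bases in regions of all 3 lists, and Gfat2 and Hex-A, enzymes earlier in that route, which were wholly covered. The others with an end were Idgf2 and Idgf3, which encode secreted chitinase-like proteins, and rtv, which is needed to organise chitin and had 39.3% of its bases in such regions. Of the remaining 6 genes, kkv, knk and Cht6 had no region base. For kkv, the chitin synthase gene, the nearest region was only 0.035 kb away, well inside the 250 bp step, so its place outside the region is not firm. The nearest region to knk, which like rtv acts in chitin organisation, was 6.90 kb away. Gnpnat, also of the UDP-GlcNAc route, had bases in a region of the combined list only, Idgf1 in one of replicate 1 only, and Cda5 had 3.78% of its bases in regions of all 3 lists without an end. For tanning and pigmentation 4 of 13 genes had an end in a region of all 3 lists, against the 55% of all genes. These were yellow-c, yellow-f, yellow-f2 and yellow-e3, while the other 4 of 8 yellow-family genes, y, yellow-b, yellow-e and yellow-e2, had no region base. Ddc, e, b and t, which act in making cuticle pigment and cross-linkers, and amd also had no region base. Ddc lay 0.393 kb from a region, a distance close to that check step of 250 bp and within the 1 kb that the check accepted.

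Of 11 regulators of the ecdysone response, 8 had at least 1 end in a region of all 3 lists, read against the 55% of all genes. The partner of the ecdysone receptor, usp, had 87.2% of its bases in regions of all 3 lists, and crol was wholly covered. The early gene br had 15.1% and Hr39 5.72%. Eip93F and dsf had no region base. No test was made of the difference between these lists and the 47 cuticle protein genes.

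Called regions bound what can be said. An empty stretch is one in which the authors' caller reported no region, and polymerase below its threshold cannot be told apart from none. How well short reads could be placed on the similar gene copies of the Ccp84 and Tweedle clusters was not tested.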

How the data were processed

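ChIP-seq regions were taken as the authors deposited them. Reads were aligned with Bowtie 0.12.7, per the submitters' processing notes, and positions are those of FlyBase release 5, per the file headers. Per the labels' protocols, cells were fixed with 1.8% formaldehyde for 10 min and chromatin was incubated with antibody for 15 h. How regions were called and replicates combined is not stated in the sources used here. The authors deposited a score for each region without naming its scale. It was above 0 in every enriched region, and it was used only to select and describe regions.

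Genes came from the RefSeq table of release 6, whose positions were converted as release 5 = release 6 on 2L, minus 4174278 on 3R and minus 105967 on X. Of 8243 genes, 45 fell outside the release 5 arms and were left out. Shifted in steps of 250 bp up to 20 kb, the share of gene ends in combined regions peaked within 1 kb of these offsets in 70 of 74 blocks of 1 Mb, and in all 17 blocks that hold a cuticle protein gene. Gene positions are therefore given as distances, and the release 5 positions printed are those of regions and the stretches between them. The table has no strand, so the planned start sites were replaced by gene ends. It holds no sequences, and the planned promoter and protein comparisons were not run.

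A gene was called when an end lay in an enriched region of all 3 lists. Members and lists were chosen with earlier results of these data known. No test was made: counts are read beside those over all protein-coding genes. Genes were named by a rule: the members of the longest stretch, those nearest to a region, and the nearest called genes beside clusters. Genes of the fixed lists are named as examples, and other named genes were chosen after their values were seen. Overlap and stretch code was tested on simulated data. Python 3.11.15, numpy 2.4.6, pandas 2.3.3 and matplotlib 3.10.9 were used.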

Additional observations from a re-analysis of the deposited data

How the results depend on the processing

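No cuticle protein gene had an end in a region in any list alone, or without the list of ChIP replicate 1 or of ChIP replicate 2. The same held for 2L alone and with regions at or above the median score of their list. None of these settings could give another count, because no cuticle protein gene had a base in a region of any list. With depleted regions included the count also stayed at 0, which follows from the absence of any depleted region on these genes. Depleted regions are few, and including them moved the share of all genes only from 55% to 55.1%. The count became 1 when an end within 250 bp or within 1000 bp of a region counted, and that gene was Cpr31A. The median share of covered bases of the cuticle protein genes was 0 under every setting run. That too follows from the absence of any enriched or depleted region on these genes. The 55% of all genes became 33.9% with the higher score threshold. Among genes chosen after seeing the data it was 33.5% for those within 20 kb of a cuticle protein gene, and it was 25.8% when both ends had to lie in regions. The median stretch of 79.3 kb became 79.4 kb from the combined list alone, 79.3 kb from replicate 1 alone, 140 kb with the higher score threshold and 45.2 kb on 2L alone, which holds 6 of the genes. The higher threshold keeps fewer regions. The genes of 2L lay in 6 stretches, while the stretches of 405 and 175 kb, which hold 8 and 13 of the cuticle protein genes, are on 3R. Leaving out the list of ChIP replicate 1 or of ChIP replicate 2 kept the median stretch at 79.3 kb. The combined list, which is for both replicates together, stayed in, so neither replicate was wholly left out. With gaps of 10 kb or 50 kb the number of clusters stayed at 5. By the gene positions, a gap of 50 kb also joins TwdlT to Cpr97Ea and Cpr97Eb, across the region at spz. The same number of clusters thus does not mean the same members. No paired analysis was possible because no result comes from a test across samples.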

Other observations

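The 21 empty stretches around cuticle protein genes held a further 113 protein-coding genes. Several are known for use in other tissues: Lsp1alpha, a larval serum protein of the fat body, shared the stretch of Cpr11A, the odorant receptor gene Or82a that of TwdlF, the octopamine receptor gene Oamb that of Cpr92F, and the terminal gap gene tll that of Cpr100A. Pburs, a subunit of the hormone bursicon that triggers cuticle tanning, lay in the stretch of 79.4 kb with Cpr35B. These genes were named after their values were seen.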
